A study of Mus musculus with 4 samples.

Results

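The Ccr2 Plac8 cells are the cells of regenerating mouse digit tips that were chosen by their UMIs (unique molecular identifiers, which count captured transcripts) of 5 genes of circulating monocytes. A barcode was a member when it had at least 1 UMI of 3 or more of Ccr2, Ly6c2, Plac8, Cybb and Ms4a6c. It was left out when it had more than 1 UMI over the macrophage genes C1qa, C1qb and C1qc together, or UMIs of 3 or more of the neutrophil genes Csf3r, Cxcr2, Retnlg, Mmp9 and Il1r2, or of 2 or more of the dendritic cell genes Flt3, Zbtb46, Cd209a, Xcr1, Clec9a and Ccr7. By this rule 423 of the 93602 cells kept over 4 libraries were members. The levels of these 19 genes therefore chose the cells, and they are given below as a description only.

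The study asked how reduced lymphatic function affects regeneration of the amputated digit tip, and droplet-based 3′ scRNA-Seq was made of digit tissue with the terminal bone (P3). Each of the 4 libraries held digits pooled from 10 female C57BL/6 mice aged 6 to 8 weeks, and each was its own batch in the labels. Mice of the SAR131675 library ate chow with 30 mg/kg of SAR131675, an inhibitor of the lymphatic growth factor receptor VEGFR3, and those of the control diet library ate matched chow without it. The design text gives 8 days of diet, whereas by the methods the diet began ahead of the amputation and was kept up. In the LNR library, lymph nodes had been removed from an extremity, and the sham library came from the opposite limb, labeled as untreated. All animals had amputated digits, but the methods amputate the second and the fourth digit and collect digits 2 to 4 for the cell suspension, so that tissue of an intact digit may be in each pool. There was 1 library per condition, cells of a library are not replicates, and batch and treatment cannot be told apart, so no p-value is given. Intervals at 95% cover counting error only.

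Classical monocytes leave the bone marrow through the chemokine receptor CCR2, circulate with high surface Ly6C, and enter injured tissue. There they lose monocyte genes and acquire macrophage genes or the MHC class II antigen presentation genes, and under M-CSF and RANKL they can fuse into bone-resorbing osteoclasts. CYBB is the catalytic subunit of the phagocyte NADPH oxidase, PLAC8 is a small protein abundant in blood leukocytes, and MS4A6C is a membrane protein of monocytes and macrophages.

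Members numbered 109 (SAR131675), 53 (control diet), 131 (LNR) and 130 (sham). Their summed depth was 919774, 427192, 794985 and 746681 UMIs in the same order, with a median of 7259, 7143, 4381 and 4424 UMIs per member. The SAR131675 and control diet libraries were thus the deeper pair, and their files came from another Cell Ranger version than the LNR and sham files, so levels are compared within each pair and not across the pairs. No member barcode occurred in more than 1 library, although kept barcodes were shared between the SAR131675 and control diet libraries (210) and between LNR and sham (101). A UMI of Ptprc, the leukocyte antigen CD45, was found in 96.3%, 94.3%, 83.2% and 82.3% of members. Scrublet, a doublet caller, marked 8, 0, 16 and 15 members, which were left in.

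Members sat close to the limits of the rule. Exactly 3 of the 5 genes were detected in 56 SAR131675, 30 control diet, 63 LNR and 76 sham members, whereas 73, 42, 88 and 102 cells failed the rule only because 2 were detected. Those cells just outside had 1646, 1882, 2928 and 1507 CPM (UMIs per 1000000 UMIs of the cells summed) of Lyz2, the myeloid lysozyme, and the members just inside had 3541, 3943, 2731 and 2683 CPM. LNR was therefore the library in which Lyz2 did not separate the sides of the limit. Of the 289, 159, 253 and 222 cells with 3 or more of the genes, the C1q limit left out 83, 56, 84 and 64, the neutrophil limit alone 3, 4, 11 and 10, and the dendritic limit alone 94, 46, 27 and 18. A further 15, 3, 2 and 1 barcodes met the rule but lay outside the limits on genes, UMIs or mitochondrial UMIs.

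Cybb and Ms4a6c were the genes most members had in common. Cybb was detected in 97.2% of SAR131675, 96.2% of control diet, 94.7% of LNR and 97.7% of sham members, and Ms4a6c in 95.4%, 92.5%, 85.5% and 83.8%. Ccr2 was detected in 90.8%, 86.8%, 77.9% and 76.2%, Plac8 in 59.6%, 58.5%, 62.6% and 59.2%, and Ly6c2, which encodes Ly6C2, in 40.4%, 34.0%, 54.2% and 45.4%. Keratin cells, with at least 50 UMIs over Krt5, Krt14, Krt1 and Krt10 and no Ptprc UMI, should lack these genes. No more than 1.07% of them had a UMI of any single one, at median depths of 9688 to 13821 UMIs. The Ptprc limit also left out barcodes with that leukocyte RNA, so the share describes keratin cells without it. These genes were shared with other myeloid cells, since Cybb was detected in 61.1% to 80.1% and Ms4a6c in 58.1% to 73.6% of the C1q macrophages described below, and Ccr2 in 49.1% to 75.3% of the dendritic cells. After thinning to 1500 UMIs per cell, which left out 2, 6, 2 and 2 shallower members, Ly6c2 was left in 25.2%, 25.5%, 37.2% and 32.8%, and Ccr2 in 62.6%, 61.7%, 51.2% and 41.4%.

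Genes of classical monocytes that the rule did not use were present, but not in all members. F13a1, the coagulation factor XIII A chain, was found in 49% of SAR131675, 38% of control diet, 37% of LNR and 30% of sham members, and Fn1 (fibronectin) in 52%, 57%, 54% and 52%. Hp (haptoglobin) was found in 32%, 40%, 38% and 36%, and Chil3, a chitinase-like protein of monocytes and neutrophils, in 20%, 25%, 34% and 28%. Lyz2 was found in at least 93.9% of the members of every library, against 2.16% to 5.85% of the keratin cells. Among the 15 genes outside the rule with the highest ratio of members to all other cells of the same library, Chil3 came first, and Ifitm6, Mpeg1 (perforin-2), Napsa, Tnip3, Hp, Coro1a and the lectin receptors Clec7a, Clec4a2 and Clec4a3 followed. The other cells are mostly not leukocytes, and neutrophils had Hp at 300, 538, 399 and 509 CPM against 169, 393, 301 and 268 CPM in members, and Clec7a at 955, 606, 280 and 242 against 421, 375, 249 and 299 CPM. Ifitm6 was at 124, 171, 425 and 613 CPM in neutrophils against 128, 157, 328 and 244 CPM in members. Mpeg1 stood at 587, 655, 355 and 383 CPM in members and at 5.11, 4.45, 7.79 and 5.73 CPM in other cells. The remaining 5, the neutrophil granule and calprotectin genes Camp, Ngp, Lcn2, S100a8 and S100a9, came from few cells, described below. For Chil3, too, 1 member held 53.5% of the UMIs in SAR131675 and 41.8% in control diet, against 13.2% in LNR and 15.5% in sham. Chil3 was at 278 CPM in SAR131675 and 431 CPM in control diet members. In their MHC class II low members, described below, it was at 364 and 139 CPM.

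The label of monocytes thus covers more than 1 kind of cell. MHC class II genes divided the members, and 7 granule genes marked another, small group. After these values were seen, members were split for description. Cells with 2 or more of Camp, Ngp, Ltf, Elane, Mpo, Prtn3 and Ctsg were granule gene cells. The rest were split into cells below or from 5000 CPM over Cd74, H2-Aa, H2-Ab1 and H2-Eb1 (MHC class II low and high). Of the members, 37 SAR131675, 16 control diet, 56 LNR and 41 sham cells were low, 70, 34, 60 and 75 were high, and 2, 3, 15 and 14 were granule gene cells. The larger group was the high one in every library, with 64.2%, 64.2%, 45.8% and 57.7% of members.

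**Figure D1:**
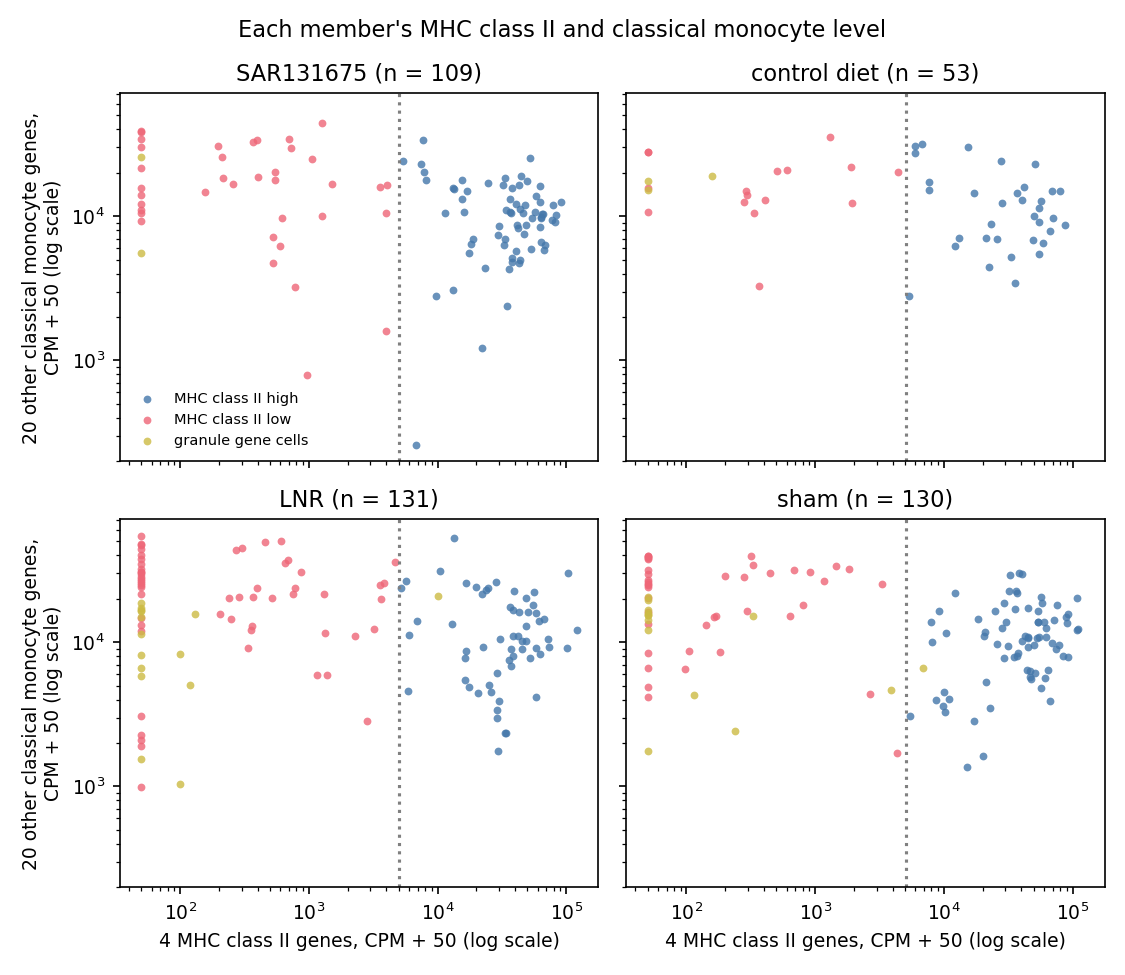
Each point is a member, with its CPM over 4 MHC class II genes on the horizontal axis and its CPM over 20 other classical monocyte genes on the vertical axis, both with 50 CPM added and on log scales, 1 panel per library. Colors show the 3 groups, and the dotted line marks the limit of 5000 CPM; members lie on both sides of it, and no more than 11 per library lie between 2500 and 10000 CPM.

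The 4 genes varied widely between members, with few members near the limit. Per member they ranged from 0 to 90744 CPM in SAR131675, 87684 in control diet, 120536 in LNR and 110629 in sham, with medians of 17628, 13119, 3186 and 11504 CPM. Under 500 CPM lay 25, 14, 53 and 43 members, at 20000 CPM or more lay 52, 24, 46 and 61, and 11, 7, 11 and 11 lay between 2500 and 10000 CPM. Over the members outside the granule group, the CPM of the 20 other classical monocyte genes and of the 4 MHC class II genes ran in opposite directions within every library, with a Spearman correlation of -0.37 over 107 SAR131675 cells, -0.34 over 50 control diet cells, -0.39 over 116 LNR cells and -0.30 over 116 sham cells. The points of a library share its depth, and in CPM a high share of 1 list lowers the others, so these are descriptions.

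MHC class II low members had higher levels of part of the classical monocyte list. Of 1858 genes tested, 21 (1.13%) were at least 2-fold higher and 24 (1.29%) at least 2-fold lower in low than in high members in all 4 libraries, and 7 of the 17 tested genes of the classical monocyte list were among the higher ones and none among the lower. Ly6c2 and Plac8 chose the members, so their levels are a description. Ly6c2 was at 461, 647, 798 and 788 CPM in low and 126, 75.8, 90.1 and 104 CPM in high members of the SAR131675, control diet, LNR and sham libraries, and Plac8 was at 1958, 1774, 2345 and 1706 against 512, 411, 378 and 473 CPM. Outside the rule, Hp was at 287, 471, 373 and 352 against 22.5, 112, 29.1 and 20.4 CPM, and F13a1 at 461, 619, 240 and 336 against 145, 97.4, 93.0 and 50.9 CPM. F10, the coagulation factor X gene, the glutathione reductase gene Gsr, the integrin gene Itgal (the alpha chain of LFA-1), Lst1, Msrb1 and Mgst1 were also in the higher set. Among transcription factors, Cebpb, which drives monocyte genes, was at 1567, 2180, 1784 and 1552 CPM in low and 755, 750, 465 and 542 CPM in high members. The same set held the keratinocyte genes Krt10 and Perp, and Krt10 was at 939, 1524, 3069 and 3202 CPM in low members, so that keratinocyte RNA was also higher there. Its part in the other genes was not tested.

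Genes of nonclassical monocytes, the patrolling cells that depend on Nr4a1 and lose Ly6C, were uneven. Nr4a1, which many cells also induce as an immediate early gene, was found in 65.4% to 79.2% of members. Pou2f2 was found in 52.3%, 47.2%, 20.6% and 23.1%, Ear2 in 33.9%, 35.8%, 16.0% and 23.8% and Adgre4 in 43.1%, 28.3%, 13.7% and 16.2%. Others were rarer. Treml4 was found in 12%, 15%, 5% and 2% of members, Ace in 8%, 11%, 9% and 9%, and Cd300e in at most 4%. Cx3cr1, the fractalkine receptor, was at 124, 166, 70.2 and 60.6 CPM in low and 31.1, 72.1, 32.0 and 12.7 CPM in high members. Of the 4 genes of this list with enough UMIs, 1, Itgal, was at least 2-fold higher in low members of all libraries.

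MHC class II high members carried genes of lectin and scavenger receptors beside Ccr2. Mgl2, a galactose-type lectin, was at 1519, 1544, 712 and 880 CPM in the high members of the SAR131675, control diet, LNR and sham libraries and had no UMI in any low member. Cd163, the hemoglobin scavenger receptor, was at 199, 184, 148 and 198 CPM and likewise had no UMI in low members. Mrc1, the mannose receptor CD206, was at 704, 639, 233 and 209 CPM in high and 16.7, 0, 51.7 and 12.1 CPM in low members. The dendritic cells described below had these genes at like levels, with Mgl2 at 1500, 1447, 876 and 1121 CPM and Cd163 at 243, 258, 179 and 224 CPM. The lectin gene Cd209d, Clec4b1, Slamf7, Slamf9, Lyz1, and the peptide loading genes H2-DMa and H2-DMb1 were in the same set. Ccr2 itself was higher in high members, at 1082, 992, 593 and 598 CPM against 708, 619, 421 and 275 CPM in low ones. Ccr2 chose the members, so its level is a description. A member without Ly6c2 and Plac8 could pass the rule only with Ccr2. Cd209a, allowed by the rule where it was the only dendritic gene, was found in 28 of 70, 13 of 34, 36 of 60 and 37 of 75 high members and in 3, 0, 1 and 1 low members. Of other macrophage markers, Vsig4 and Cd5l had no UMI in any member and Folr2 was found in 1 LNR member.

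**Figure D2:**
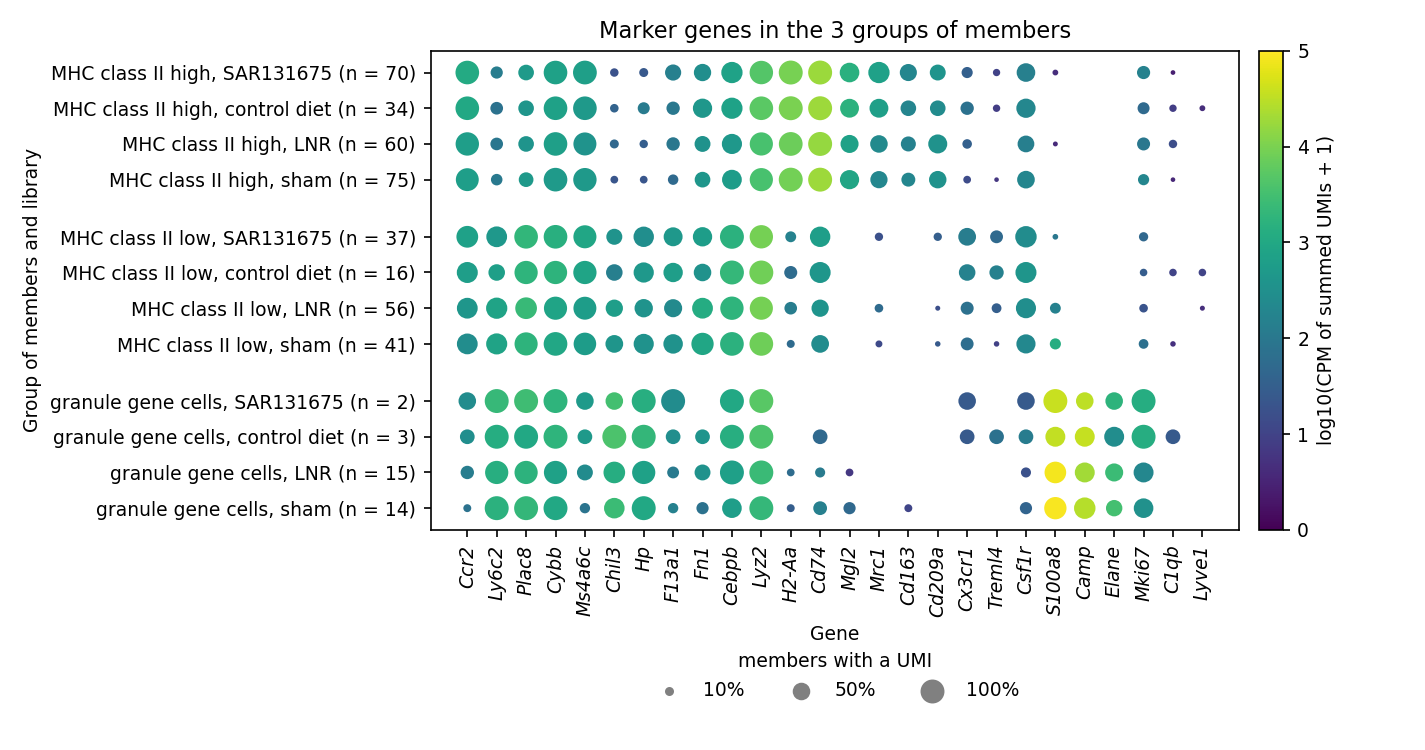
Dot plot of marker genes (columns) in the 3 groups of members in each library (rows), with dot size for the share of members with a UMI and color for the CPM of the group on a log scale. Hp and F13a1 are higher in the MHC class II low than in the high members. H2-Aa, Cd74, Mgl2, Mrc1 and Cd163 stand out in the high members, and S100a8, Camp and Elane in the granule gene cells.

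The granule gene cells expressed genes that neutrophil precursors use to fill their granules. Camp, the cathelicidin precursor, was at 31399, 36549, 20433 and 28125 CPM over these 2, 3, 15 and 14 cells, but had UMIs in only 1, 2, 10 and 11 of them, and neither Camp, Ngp nor Ltf had a UMI in any other member. Elane (neutrophil elastase) was at 1738, 263, 2547 and 3258 CPM and Mpo (myeloperoxidase) at 452, 0, 1065 and 2100 CPM, also with none in the other members, and the choice of the group by these genes sets that in part. These cells held 98.1%, 99.9%, 99.7% and 98.0% of all member UMIs of the neutrophil list, although they made up 1.83%, 5.66%, 11.5% and 10.8% of members. They nevertheless passed the rule with Ly6c2 at 2190, 1269, 1360 and 1544 CPM and Plac8 at 2833, 982, 1598 and 2062 CPM. Their MHC class II genes were low, with a median of 0 CPM in every library. For this small group the name of monocytes is not borne out by the list. Members in the comparisons below include these cells unless a group is named.

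Cells with RNA of mitosis were a larger share of that group than of the others, although most of them lay outside it in all libraries but LNR. At least 2 of 6 mitosis genes were detected in 2 of 2, 3 of 3, 10 of 15 and 12 of 14 granule gene cells, in 2 of 37, 1 of 16, 1 of 56 and 6 of 41 MHC class II low members and in 9 of 70, 3 of 34, 6 of 60 and 9 of 75 high members. Over all members the shares were 11.9% (95% Clopper-Pearson interval 6.51% to 19.5%) in SAR131675, 13.2% (5.48% to 25.3%) in control diet and 20.8% (14.2% to 28.8%) in sham, and 17 of 131 LNR members had them. Granule gene cells were also deeper, with a median of 21004, 12421, 10741 and 6668 UMIs, and detection depends on depth, so the order of the groups by this share was not separated from depth.

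RNA of other cell types was found in many members. Keratinocyte list levels were 1690, 2385, 5255 and 6558 CPM, and 2 or more genes of the list were detected in 100, 35, 55 and 66 members. There were 20 or more keratin UMIs in 7 SAR131675, 3 control diet, 18 LNR and 18 sham members. Krt14 was detected in 50.5%, 34.0%, 27.5% and 30.0% of members and in 51.8%, 32.1%, 35.2% and 37.2% of C1q macrophages. Fibroblast and bone cell list levels were 976, 1955, 2976 and 1742 CPM, with 20 or more UMIs of the list in 3, 4, 15 and 10 members. A single SAR131675 member held 62.6% immunoglobulin UMIs, both Siglech and Ccr9 (genes of plasmacytoid dendritic cells) were detected in 2, 0, 2 and 4 members, and globin exceeded 1% of UMIs in 3, 0, 1 and 1. Of the T and NK cell list of 12 genes, 6, 10, 9 and 8 had no UMI, and of the 6 mast cell and basophil genes 4, 6, 2 and 3 had none. In all, 14, 7, 34 and 32 members held another cell type's RNA by at least 1 of the keratin, fibroblast, immunoglobulin, plasmacytoid or globin measures. Its part in the differences below was not tested beyond the values without these cells.

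Compared with the C1q macrophages of the same library (914, 719, 1203 and 1149 cells with 3 or more C1q UMIs), members had lower macrophage genes and higher MHC class II genes. The rule set the border between these groups, so the comparison describes it. Of 10047 genes, 229 (2.28%) were at least 2-fold higher and 484 (4.82%) at least 2-fold lower in members in all 4 libraries. Of the 19 tested macrophage genes 18 were lower and none was higher, and all 7 tested MHC class II genes were higher. MHC class II low members did not share this. In SAR131675 and control diet they had H2-Aa at 167 and 55.4 CPM, against 1427 and 957 CPM in macrophages. Their Cd74 was at 605 and 416 against 2422 and 1719 CPM. Of 18 tested classical monocyte genes 7 were higher and 1, F13a1, was lower. Il1b, the interleukin 1 beta gene, was at 1373, 1824, 1998 and 1859 CPM in members and 73.7, 80.3, 247 and 101 CPM in macrophages. The dendritic cells described below had Il1b at 1134, 1189, 1804 and 1513 CPM and Itgb7 at 111, 100, 99.9 and 158 CPM. Neutrophils had Il1b at 10781, 9371, 4653 and 4079 CPM. Itgb7, the integrin beta 7 chain, was at 104, 86.6, 85.5 and 80.4 against 7.65, 5.21, 2.32 and 2.26 CPM, and Ms4a4c at 273, 129, 91.8 and 102 against 4.31, 3.95, 3.56 and 1.05 CPM. Lyve1, which marks perivascular macrophages as well as lymphatic vessels, was at 0, 4.68, 1.26 and 0 CPM in members and 1573, 2067, 1036 and 904 CPM in macrophages. The chemokine gene Pf4 was at 8.70, 9.36, 13.8 and 5.36 against 4610, 4655, 4261 and 3468 CPM. The macrophage list as a whole was at 2251, 2053, 2107 and 2258 CPM in members, and 2 or more of its 20 genes were detected in 105, 49, 113 and 104 of them. F13a1, although a gene of the classical monocyte list, was lower in members, at 253, 248, 147 and 159 against 2456, 2718, 1531 and 1330 CPM. Csf1r, the M-CSF receptor, was lower too, at 176, 248, 160 and 177 against 614, 807, 816 and 693 CPM.

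Compared with neutrophils (128, 79, 218 and 136 cells with 3 or more of the 5 neutrophil genes and at most 1 C1q UMI), 170 of 3976 genes (4.28%) were at least 2-fold higher and 181 (4.55%) lower in members in all libraries. Lyz2 was at 6045, 5819, 5143 and 4864 CPM in members and 503, 519, 755 and 925 CPM in neutrophils, and H2-Aa, Mrc1, Mgl2, Ms4a4c and Csf1r were also higher. The neutrophil chemokine gene Cxcl2 was lower, at 604, 440, 903 and 541 against 15243, 14385, 6026 and 5980 CPM, and so were Acod1, G0s2, Fpr1 and Cxcl3.

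The dendritic cells (174, 88, 61 and 53 cells with a Ptprc UMI and 2 or more of the 6 dendritic genes) were separated from members by the limit on those 6 genes, and 54.0%, 52.3%, 44.3% and 34.0% of them had UMIs of 3 or more of the monocyte genes of the rule. Of 3863 genes, 7 (0.181%) were at least 2-fold lower and 48 (1.24%) at least 2-fold higher in members in all libraries. Higher genes included 11 of 18 tested classical monocyte genes. Thbs1 (thrombospondin 1) was at 251, 489, 384 and 404 CPM in members and 10.8, 9.21, 25.6 and 0 CPM in dendritic cells, and the Mincle gene Clec4e was at 134, 304, 192 and 183 against 9.24, 16.4, 7.69 and 10.3 CPM. The lower genes were Tbc1d4, Mfge8, Epcam, Gpr183, H2-DMb2, Pak1 and Adam19. None of the 7 tested MHC class II genes was past 2-fold in all libraries.

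Members were a larger share of kept cells in the SAR131675 library than in the control diet library and a like share in the LNR and sham libraries. They were 0.375% (0.308% to 0.452%) of 29076 cells in SAR131675 and 0.221% (0.165% to 0.288%) of 24030 cells in control diet, a log2 ratio of 0.77 (exact conditional interval 0.28 to 1.27). In LNR they were 0.661% (0.553% to 0.784%) of 19827 cells and in sham 0.629% (0.526% to 0.746%) of 20669 cells, a log2 ratio of 0.07 (-0.29 to 0.43). No difference was therefore detectable in the LNR pair at this depth. As a share of cells with a Ptprc UMI the ratio in the SAR131675 pair was 0.55 (0.06 to 1.07), and with members that held 2 or more T/NK, B/plasma or plasmacytoid genes removed it was 0.38 (-0.34 to 1.12), from 44 and 28 members. After thinning every cell to 1500 UMIs, the median of 20 draws was 0.268% in SAR131675, 0.139% in control diet, 0.395% in LNR and 0.346% in sham. Without thinning, dendritic cells numbered 174 in SAR131675 and 88 in control diet, neutrophils 128 and 79, and C1q macrophages 914 and 719. Dendritic cells and neutrophils were thus also a larger share of kept cells in SAR131675, so a larger share was not particular to members.

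**Figure D3:**
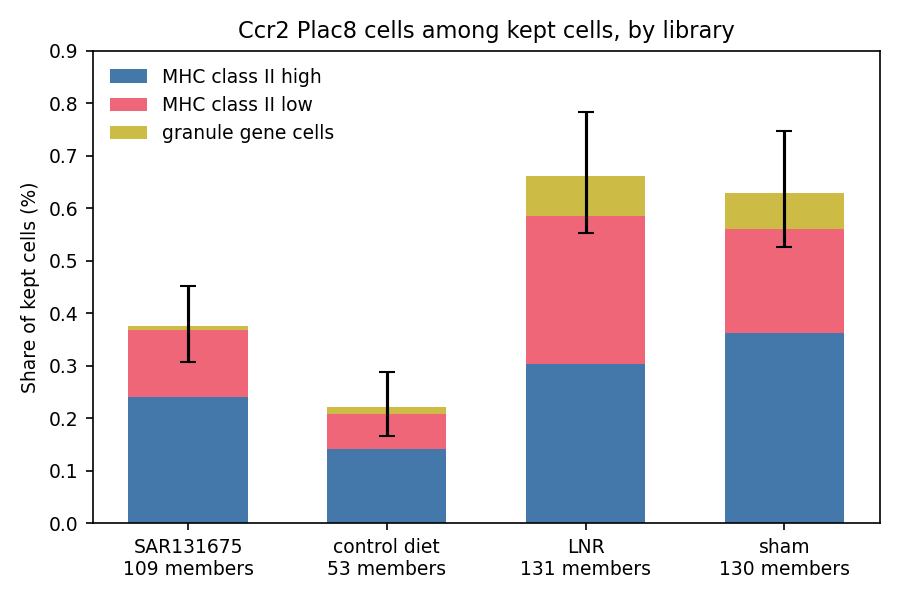
Bars give the Ccr2 Plac8 cells as a percent of kept cells in each library, stacked by MHC class II high members, MHC class II low members and granule gene cells, with 95% Clopper-Pearson intervals for the whole bar. The SAR131675 bar (0.375%) lies above the control diet bar (0.221%), and the LNR (0.661%) and sham (0.629%) bars have overlapping intervals.

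Both main groups were larger in the SAR131675 library. Low members were 0.127% of kept cells against 0.067% in control diet, a log2 ratio of 0.93 (0.05 to 1.88), and high members 0.241% against 0.141%, a log2 ratio of 0.77 (0.16 to 1.40). With the limit at 2500 or 10000 CPM the interval for low members included 0 (log2 ratios 0.86 and 0.73). In the LNR pair the low members were 0.282% against 0.198%, with 0.51 (-0.10 to 1.13), and the high members 0.303% against 0.363%, with -0.26 (-0.78 to 0.25), so both intervals included 0. Granule gene cells were 0.007% against 0.012% and 0.076% against 0.068%, with 0.16 (-0.99 to 1.32) in the LNR pair and, from 5 cells in all, -0.86 (-4.44 to 2.27) in the SAR131675 pair.

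Within members, the expression of monocyte and MHC class II genes differed little between SAR131675 and control diet. Of 6432 genes with at least 30 UMIs in the pair, 203 (3.16%) were at least 2-fold higher and 239 (3.72%) at least 2-fold lower in SAR131675. The classical monocyte list was at 12568 against 13317 CPM, with none of its 20 genes 2-fold higher and 3 lower, Vcan (versican, 84.8 against 241 CPM), Hp (169 against 393 CPM) and Fcnb, a gene of the granule cells. Within low members Vcan was at 110 against 323 CPM (-1.55), and Hp, at 287 against 471 CPM (-0.72), was not past 2-fold. Chil3 was past 2-fold the other way there, at 364 against 139 CPM (1.35, 0.61 to 2.28). Fn1 was higher but not past 2-fold, at 585 against 360 CPM (0.68). MHC class II genes were at 26219 against 27882 CPM, a log2 ratio of -0.09, and none of 7 was past 2-fold. Under 10 alternatives the classical list ranged from -0.24 to 0.04 and the MHC class II list from -0.26 to 0.23, so neither had a settled direction. The NADPH oxidase, adhesion, immediate early and hypoxia lists also held no gene past 2-fold. The median log2 ratio over all genes tested was -0.01. Beside these, the keratinocyte list was at 1690 against 2385 CPM (-0.50, from -0.60 to 0.88 under 10 alternatives), the fibroblast and bone cell list at 976 against 1955 CPM and the RNA quality and stress list at 17958 against 15169 CPM, and their part in other differences was not tested. The fibroblast list was at 2740 against 46.2 CPM in low members and 133 against 2994 CPM in high members.

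Interferon-stimulated genes, which cells switch on after type I or II interferon, were the list with the highest level in SAR131675 members relative to control diet members among the lists of myeloid function. Of 13 tested genes 8 were at least 2-fold higher and none was lower, with a median log2 ratio of 1.30, and the list was at 946 against 379 CPM, a log2 ratio of 1.32 (1.08 to 1.57). Cxcl10, the chemokine IP-10, was at 127 against 16.4 CPM (117 and 7 UMIs, log2 ratio 2.86, interval 1.87 to 4.30), Irf7 at 59.8 against 23.4 CPM and Bst2 (tetherin) at 146 against 56.2 CPM. The antiviral genes Ifit2, Ifit3 and Rsad2 had 40, 41 and 32 UMIs in SAR131675 and 2, 1 and 2 in control diet, and Ifi213, outside the list, had 46 against 2 UMIs. The UMIs of these genes came from several members, with 12 SAR131675 members for Ifit3 and 17 for Cxcl10.

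**Figure D4:**
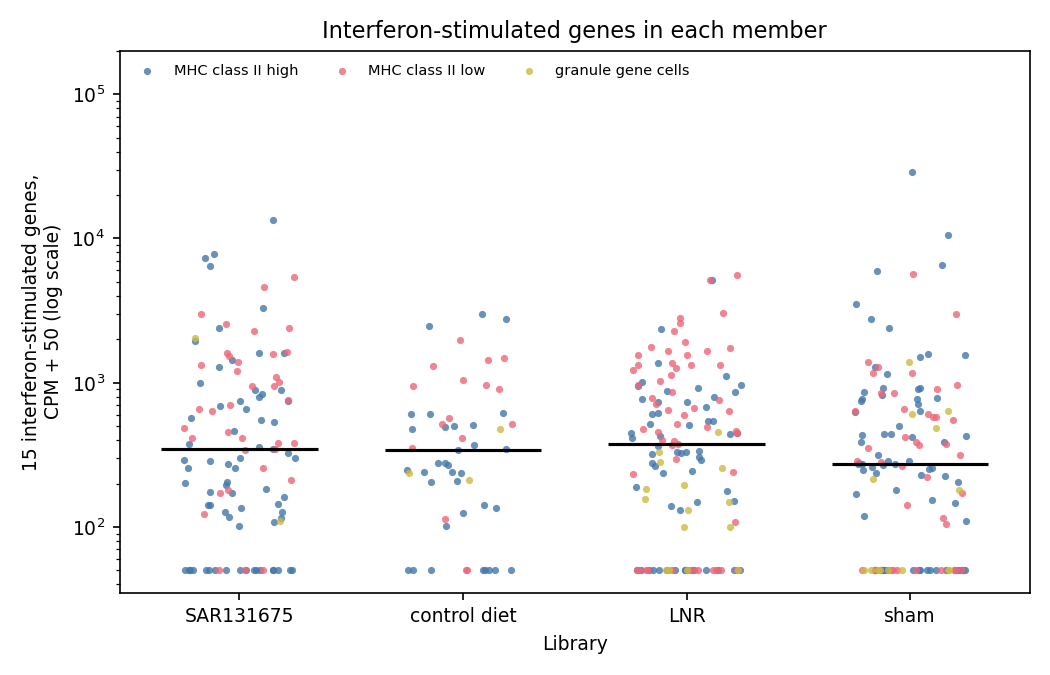
Each point is a member, with its CPM over 15 interferon-stimulated genes plus 50 on a log axis, by library and colored by group, with a bar at each library's median. Medians are alike in SAR131675 (295 CPM) and control diet (294 CPM), and the highest members of SAR131675 (13344 CPM) and sham (28660 CPM) lie above those of control diet (2924 CPM) and LNR (5515 CPM).

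The medians per member did not show this difference. The median was 295 CPM in SAR131675 and 294 CPM in control diet, the highest was 13344 and 2924 CPM, and the 5 highest members held 38.7% and 34.6% of the list's UMIs. Without those 5 members, which are a larger share of the smaller control diet set, the list was at 624 against 287 CPM. At 1500 UMIs per cell, 53 (49.5%) of 107 SAR131675 and 15 (31.9%) of 47 control diet members had a UMI of the list, with 2 and 6 shallower members left out. Low members stood at 1176 against 674 CPM (log2 ratio 0.79, 0.44 to 1.19), but with medians of 650 and 687 CPM and with 54.5% and 67.1% of the list's UMIs in the 5 highest cells. High members stood at 806 against 278 CPM (1.53, 1.19 to 1.90). In the high members the 5 highest cells held 60.9% and 44.2% of the list's UMIs, the list was at 338 against 192 CPM without them, and the medians were 181 and 194 CPM. Without the members that held another cell type's RNA the log2 ratio of the list was 1.07. Without those that had 2 or more T/NK, B/plasma or plasmacytoid genes, a list that shares Bst2 with the interferon list, it was -0.33, from 94 and 69 UMIs. The same list was at 495 against 530 CPM in the C1q macrophages of the pair, 582 against 428 CPM in neutrophils and 289 against 294 CPM in dendritic cells. In the LNR pair it was lower in LNR, at 433 against 545 CPM (-0.33, -0.54 to -0.12), with Cxcl10 at 57.9 against 149 CPM and per-member medians of 328 and 224 CPM. A single sham member held 16.0% of the list's UMIs there, and without the 5 highest members of each library the order turned, to 364 against 345.5 CPM. The 2 groups of members pointed opposite ways there, at 768 against 428 CPM in low members (0.84, 0.50 to 1.19) and 326 against 677 CPM in high members (-1.05, -1.39 to -0.73).

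Repair and cytokine genes leaned lower in SAR131675 members. Growth factor and repair genes were at 1126 against 1550 CPM (-0.46, -0.60 to -0.32), and 4 of 10 tested were at least 2-fold lower and none higher, namely Vegfa (21.7 against 89.0 CPM), Igf1 (14.1 against 56.2 CPM), Areg (22.8 against 53.8 CPM) and Tgm2 (25.0 against 70.2 CPM). Within low members Vegfa (43.4 against 64.7 CPM) and Igf1 (4 and 1 UMIs) were not 2-fold lower. Tgm2 (56.8 against 185 CPM) and Areg (0 and 4 UMIs) were. The fibroblast and bone cell list was lower in SAR131675 than in control diet high members, and its part was not tested. Cytokine and inflammation genes were at 3884 against 5225 CPM (-0.43, -0.50 to -0.35), with Il1rn, the interleukin 1 receptor antagonist gene, at 31.5 against 108 CPM and Il6 at 16.3 against 37.5 CPM. Within low members genes of this list were mixed. Il1b (1570 against 1210 CPM) and Ptgs2 (167 against 46.2 CPM) were higher there, and Nfkbiz (474 against 878 CPM) and Il1rn (13.4 against 64.7 CPM) lower. Pattern recognition and Fc receptor genes were at 4575 against 4970 CPM (-0.12, -0.19 to -0.04). Of these 14 genes 3 were at least 2-fold lower, Tlr4, Clec4e (134 against 304 CPM) and Clec4n, and none was higher. The sign of the sums of the repair, cytokine and receptor lists held under all 10 alternatives run. The receptor list came to -0.0029 in 1 of them. Ccl2, the ligand of CCR2, was higher at 66.3 against 28.1 CPM, from 61 and 12 UMIs. The chemokine list that holds it had a log2 ratio of 0.32, from -0.54 to 0.40 under 10 alternatives, so its direction was not settled.

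Genes of the osteoclast lineage were present in part. Csf1r was at 176 against 248 CPM, Tnfrsf11a, the receptor RANK, at 51.1 against 86.6 CPM, and Mitf at 111 against 169 CPM in SAR131675 and control diet. The list of 16 genes was at 532 against 709 CPM (-0.42, -0.63 to -0.20), with 1 of 8 tested genes at least 2-fold lower, the fusion gene Dcstamp (12 and 21 UMIs), and none higher. Within low members Dcstamp had no UMI, and Tnfrsf11a had 5 and 3 UMIs (16.7 against 27.7 CPM). Tnfrsf11a was at 155 against 157 CPM in C1q macrophages and 65.7 against 63.4 CPM in dendritic cells. In LNR and sham, Csf1r was at 160 and 177, Tnfrsf11a at 13.8 and 12.1 and Mitf at 10.1 and 9.37 CPM. Of genes of mature osteoclasts, Oscar and Atp6v0d2 had no UMI in any member, and Ctsk was at 38.1, 18.7, 20.1 and 2.68 CPM, Acp5 at 5.44, 7.02, 18.9 and 25.4 CPM and Tcirg1, which other cells also use, at 42.4, 37.5, 27.7 and 45.5 CPM. Ctsk was at 104 against 9.24 CPM (31 and 1 UMIs) in low members of SAR131675 and control diet. The fibroblast and bone cell list was also higher in these SAR131675 cells, and its part was not tested.

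**Figure D5:**
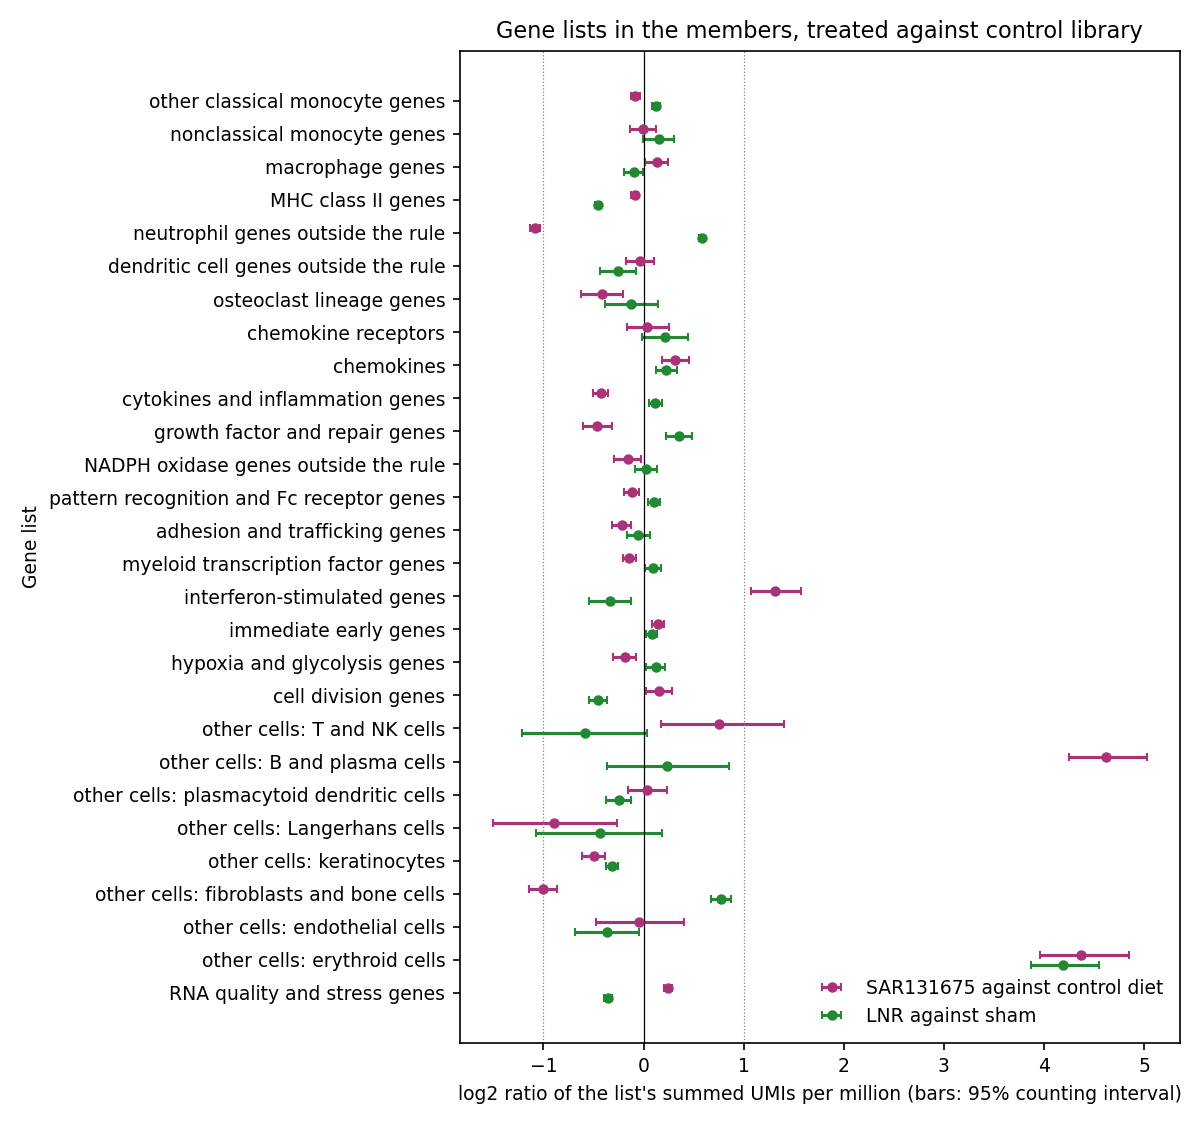
Log2 ratio of the summed CPM of 28 gene lists outside the rule in the members, SAR131675 over control diet and LNR over sham, with exact conditional 95% intervals for counting error. Interferon-stimulated genes lie at 1.32 in the SAR131675 pair and -0.33 in the LNR pair, and growth factor and repair genes at -0.46 and 0.35, and the erythroid list lies at 4.37 and 4.19, mostly from single members.

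LNR members had less MHC class II RNA and slightly more classical monocyte RNA than sham members. Of 5507 genes tested, 106 (1.92%) were at least 2-fold higher and 110 (2%) at least 2-fold lower in LNR. MHC class II genes were at 16164 against 22170 CPM (-0.46, -0.49 to -0.42), all 7 tested genes were lower and none reached 2-fold. Cd74, the invariant chain, was at 7198 against 9872 CPM and H2-Aa at 3350 against 4622 CPM. Within the high members the gap was smaller, at 36473 against 41623 CPM (-0.19), and within the low members, whose limit these genes set, the order was the opposite, at 901 against 582 CPM (0.63, 0.33 to 0.94). The high members were 45.8% of LNR and 57.7% of sham members. Classical monocyte genes were at 13305 against 12203 CPM (0.12, 0.08 to 0.17), with none of 20 past 2-fold. Both lists kept their sign under all 10 alternatives, from -0.76 to -0.31 and from 0.08 to 0.23. Beside them, the RNA quality and stress list was lower in LNR (10666 against 13634 CPM) and the fibroblast and bone cell list higher (2976 against 1742 CPM, 0.77), although the latter came to -0.88 without members that held another cell type's RNA, and their part was not tested.

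Growth factor and repair genes were higher in LNR, at 1426 against 1118 CPM (0.35, 0.22 to 0.48). Of 10 tested 3 were at least 2-fold higher, Areg (amphiregulin, 114 against 50.9 CPM), Spp1 (osteopontin, 162 against 13.4 CPM) and Mmp19, and Tgm2 stood at 51.6 against 25.4 CPM. For Spp1, 47.3% of the LNR UMIs came from 1 member, and without the highest member of each library the log2 ratio was 3.09. In the low members the list was at 2334 against 1269 CPM (0.88, 0.68 to 1.08) and in the high members at 1128 against 1216 CPM (-0.11, -0.31 to 0.09). The fibroblast and bone cell list was higher in the same low members, at 3342 against 1164 CPM, and its part was not tested. Cell division genes were lower in LNR, at 2248 against 3087 CPM (-0.46, -0.55 to -0.37), as seen for Mki67 (93.1 against 170 CPM) and Top2a (96.9 against 186 CPM). In low members this list was at 897 against 2005 CPM, in high members at 1488 against 2541 CPM. The keratinocyte list was also lower in LNR low members, at 7385 against 12734 CPM, but not in high members, at 4526 against 4243 CPM, and its part was not tested. In the SAR131675 pair the list had no settled direction over all members (1823 against 1636 CPM, 0.16, from -0.22 to 1.06 under 10 alternatives), and in the high members it was at 1679 against 902 CPM (0.89). The neutrophil list was at 48668 against 32520 CPM in all members, but at 214166 against 224142 CPM within the granule gene cells, which held 22.7% of the member UMIs of LNR and 14.2% of those of sham. Without these cells the log2 ratio of the list was -2.23, from a low level in both libraries.

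The genes with the largest ratios were often those of 1 member. In the SAR131675 pair 5 of the 8 highest and 6 of the 8 lowest ratios, and in the LNR pair 3 of the 8 highest and none of the 8 lowest, had 50% or more of their UMIs in a single member of the library with the higher level. In SAR131675 these were Prg4 (lubricin), where 97.8% of 938 UMIs came from 1 member and the log2 ratio of 5.52 became 0.23 without the highest member of each library, Ighm with 95.8% of 2407 UMIs, Hba-a1, Hbb-bs and Hrnr. The lowest ratios included the epithelial genes Krt79 and Cst6, the follistatin gene Fst, the AP-1 gene Fosl1, Gsn, Serping1 and Dcn (decorin). In the LNR pair Hbb-bs, Cst6 and Prg4 were carried by 1 member, with 94.1%, 97.2% and 85.8% of their UMIs, and Pmpcb, Tamalin, Ocrl and the inhibitory receptor gene Cd300lf (40.3 against 10.7 CPM, 19 and 6 members) were not.

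Among the lowest ratios of LNR, Klrb1b, a C-type lectin of NK cells that is also found in myeloid cells, was at 36.5 against 122 CPM, from 29 UMIs in 16 members against 91 UMIs in 33 members, a log2 ratio of -1.72 (-2.40 to -1.12). In the SAR131675 pair it was at 163 against 229 CPM. H2ac24, Ckmt1, Spc24, Gipc1, Pxdc1 and Cep57 were each at 32.1 CPM or more in sham and 18.9 CPM or less in LNR, and Krt1, a keratin, was at 52.8 against 629 CPM, with 46.2% of the sham UMIs in 1 of 17 members.

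Of the genes that pointed the same way in both pairs, 5 higher and 5 lower ones were taken by the size of the smaller ratio. Ifi203, an interferon-inducible gene, was at 149 against 56.2 CPM in SAR131675 and control diet (log2 ratio 1.38, 0.77 to 2.10) and at 86.8 against 30.8 CPM in LNR and sham (1.47, 0.80 to 2.24), and no member held over 29.2% of its UMIs. The lectin receptor gene Klrd1 (CD94) was at 45.7 against 9.36 CPM and at 81.8 against 40.2 CPM, from 20, 3, 25 and 19 members. Hbb-bs, Prg4 and Smim5 were the other genes with a higher level in both, but the interval of Smim5 in the SAR131675 pair included 0 (0.92, -0.22 to 2.42). Prg4 without the highest member of each library had log2 ratios of 0.23 (-0.95 to 1.67) and 0.94 (0.38 to 1.55). Incenp, Eftud2, Arl13b, Tnip1 and the TWEAK receptor gene Tnfrsf12a had a lower level in both, with an interval for Tnip1 in the LNR pair that included 0 (-0.95, -2.07 to 0.06). Tnfrsf12a was at 31.5 against 72.6 CPM and at 32.7 against 62.9 CPM. The pairs share no library, and each ratio has counting error only.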

How the data were processed

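The files hold unnormalized UMI counts of 33696 genes, which the authors deposited for each barcode of 10x Genomics 3′ libraries. The submitters' processing notes name Cell Ranger 6.1.2 and GRCm39, whereas the matrix headers give Cell Ranger 6.1.2 (LNR, sham) and 8.0.1 (SAR131675, control diet). The libraries held 38464 (SAR131675), 30831 (control diet), 21669 (LNR) and 22539 (sham) barcodes, with 585284877, 448276501, 168507188 and 175998346 UMIs. Cells with 200 to 5500 genes, at most 30000 UMIs and at most 10% mitochondrial UMIs were kept (29076, 24030, 19827 and 20669). Doublets were left in. Scrublet in scanpy 1.11.5, used in an alternative, marked 4.67%, 0.907%, 7.41% and 6.97% of them. Python 3.11.15, numpy 2.4.6, scipy 1.17.1, pandas 2.3.3 and matplotlib 3.10.9 were used.

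Members and gene lists were chosen with earlier results of these data known. Member UMIs were summed per library. Ratios are of CPM with 0.5 UMI added, for genes with at least 30 UMIs in a pair and outside the rule. Shares have Clopper-Pearson, levels Poisson and ratios exact conditional intervals. Of these, only the ratios and their intervals were tried on simulated data, with independent Poisson counts as the interval assumes. That trial cannot tell how the intervals behave where 1 member holds most UMIs of a gene. Between cell groups, a gene was called where all 4 libraries went the same way by at least 2-fold. Besides the genes of 33 lists, the text names the 15 genes with the highest median ratio of members to other cells (at least 100 CPM in members of every library), the 8 highest and 8 lowest ratios per pair (a UMI in at least 10% of members where higher) and the 5 largest shared by both pairs. Other genes named in comparisons of cell groups (Ms4a4c, Itgb7, Cd209d, F10, Acod1 and the like) and the 3 groups of members were singled out after their values were seen. Coordinates are not given, since the reference used here is of another build. Results for an item withheld from this text are not reported here.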

Additional observations from a re-analysis of the deposited data

How the results depend on the processing

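No paired analysis was possible because each condition has 1 library, and for the same reason no library could be left out. The log2 ratio of the shares of kept cells in each pair stayed inside its main 95% interval under all alternatives run, although the shares themselves were lower after thinning. The count of genes past 2-fold, 442 in the SAR131675 pair and 216 in the LNR pair, followed the number of genes tested: 100 and 68 with members thinned to 1500 UMIs, 1350 and 994 from 10 UMIs, 76 and 42 from 100 UMIs. It was 664 in the SAR131675 pair with the mean of per-cell CPM, 279 (3226 genes tested) without members holding 2 or more T/NK, B/plasma or plasmacytoid genes and 805 without upper limits on genes and UMIs. The split of 203 higher and 239 lower genes became 76 and 245 with 5 UMIs added, and 338 and 204 without each gene's highest member. In the LNR pair the count was 126 with 5 UMIs added, and 124 without members holding another cell type's RNA. In the SAR131675 pair the neutrophil list changed sign to 2.92 with at least 4 rule genes, 0.038 without members holding T/NK, B/plasma or plasmacytoid genes and 3.53 without granule gene cells, and interferon-stimulated genes to -0.33 without members holding those 3 lists' genes. The fibroblast list changed to 3.70 with 4 rule genes, 0.43 without members holding T/NK or B/plasma genes and 1.03 without members holding another cell type's RNA. The keratinocyte list changed to 0.88 without the latter, 0.55 without members holding T/NK, B/plasma or plasmacytoid genes and 0.043 with the mean of per-cell CPM. In the LNR pair the fibroblast list changed to -0.88 without members holding another cell type's RNA, and the keratinocyte list to 0.16 without barcodes called by Scrublet. The erythroid list changed to -0.59 in the SAR131675 pair without these members, and to -0.037 in the LNR pair without barcodes called by Scrublet, which moved the B and plasma list to -0.0019 in the SAR131675 pair. Mast cell and basophil genes, with at most 2 UMIs in a library of that pair, gave -1.19 after thinning, -0.77 without members holding those 3 lists' genes and -0.65 without upper limits. The cause of these changes was not tested. The removals of granule gene cells, of members with T/NK or B/plasma genes and of members with another cell type's RNA, of each gene's highest member, and the other limits for MHC class II, were chosen after seeing the data.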
